A study of Mus musculus with 24 samples.

Results

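Kdm5c knockout mice were compared with wild-type mice after both had explored an unfamiliar place, with RNA sequencing of the hippocampus. The comparison took the 3 knockout (KO) and the 3 wild-type libraries made after novelty, 6 of the 18 libraries of the series, chosen by their labels and by no measured value. Each library held the pooled hippocampal tissue of 3 male mice aged 2 to 4 months, on the mixed F1 background of C57 and 129. The KO mice carried a null allele of the X-linked Kdm5c in every cell (Kdm5c-/y, labelled Kdm5c -/-), and the wild-type mice carried no modification that the labels name. Every animal of the 6 libraries had spent 1 h alone in a white box with plastic tubing and small toys. For reference, 3 untreated KO and 3 untreated wild-type libraries of the same background, flowcell and read length entered the same fit. Since mice were pooled, errors and p-values describe the spread between pools and not between animals. The sample labels name hippocampal tissue, whereas the extraction text speaks of cultures.

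KDM5C removes methyl groups from lysine 4 of histone H3, a mark of active promoters and enhancers, and its loss in humans causes an X-linked intellectual disability. Genes of the germ line are normally shut off in the embryo by the PRC1.6 complex, which holds the DNA-binding proteins E2F6, MGA and MAX, and by DNA methylation. Exploration of a new place makes hippocampal neurons transcribe immediate early genes such as Fos and Arc within minutes.

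The 6 libraries held between 16706464 and 31411937 counts in genes. Markers of the dentate gyrus (12 of 12), of CA1 (10 of 10) and of CA2 and CA3 (13 of 13) all had enough counts to be tested. Wild-type library 1 and KO library 2 stood apart from their groups: the first principal component of the 6 libraries (37.2% of the variance) set these apart at its ends, and the second (26.96%) separated the genotypes. Across genes, the difference of a library from its group correlated with GC content at a Spearman rho between -0.61 and 0.70 (14463 genes, which share library and depth). KO library 2 also held the nuclear RNA Malat1 at 1787 CPM, against 595 to 859 CPM in the other libraries. Here CPM are counts scaled to a common library size (per M counts in genes, with TMM factors), and they are not scaled by transcript length. The part of these differences in the results was not tested beyond the values given below without those libraries.

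Kdm5c itself (ENSMUSG00000025332, chromosome X, 152233020 to 152274535, GRCm38) was read at 100, 90.2 and 96.0 CPM in wild-type libraries 1, 2 and 3 and at 78.5, 77.8 and 86.5 CPM in the KO libraries. All KO values lay under all wild-type values, by a log2 fold change of -0.24 ± 0.06 (SE; adjusted p = 0.108, edgeR quasi-likelihood test). DESeq2 gave an adjusted p of 0.0392 for the Kdm5c log2 fold change after novelty and offsets for GC content and length 0.015, within a range of 0.015 to 1 over the 16 alternatives. In untreated mice Kdm5c stood at 75.4, 74.2 and 76.4 CPM in wild type against 75.8, 76.3 and 75.4 CPM in KO, values that overlap (0.01, edgeR adjusted p = 0.983). A count over the whole gene does not show whether some exons are missing, so this level checks neither genotype nor deletion.

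Of 16392 genes tested after novelty, 219 were called, or 1.34%, with a Benjamini-Hochberg adjusted p under 0.05. In KO 196 genes were higher (1.2%) and 23 lower (0.14%). At an unadjusted p under the same threshold 1431 genes passed (8.73%). The higher genes had a median log2 fold change of 0.99, also with D1Pas1, which had no wild-type count, at its bound. The lower genes had a median of -0.47. Folds over 1.5, 2, 4 and 8 were reached by 164, 97, 30 and 11 of the higher genes, whereas 4 lower genes passed 1.5-fold and 0 passed 2-fold. In all 219 called genes the KO and wild-type libraries did not overlap, while over all tested genes every KO library lay above every wild-type library in 6.64% and below in 4.56%. In bulk tissue, more cells of a type and more RNA per cell cannot be told apart, which holds for every gene below.

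The rises came mostly from genes that wild-type hippocampus kept low. Of the 196 higher genes, 136 had a wild-type mean under 10 CPM, which is 69.4% against 38.8% of tested genes, and 42 had a mean under 1 CPM. Their median was 4.15 CPM in wild type and 8.82 CPM in KO. The lower genes stood at a median of 40.5 CPM in wild type, and 3 of 23 were under 10 CPM. Summed over all 196 higher genes the level was 3077, 2890 and 2918 CPM in the wild-type libraries and 5070, 4824 and 5183 CPM in the KO libraries. A gene near 0 in wild type could be tested only through its KO counts, so it had to differ in this direction.

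**Figure D1:**
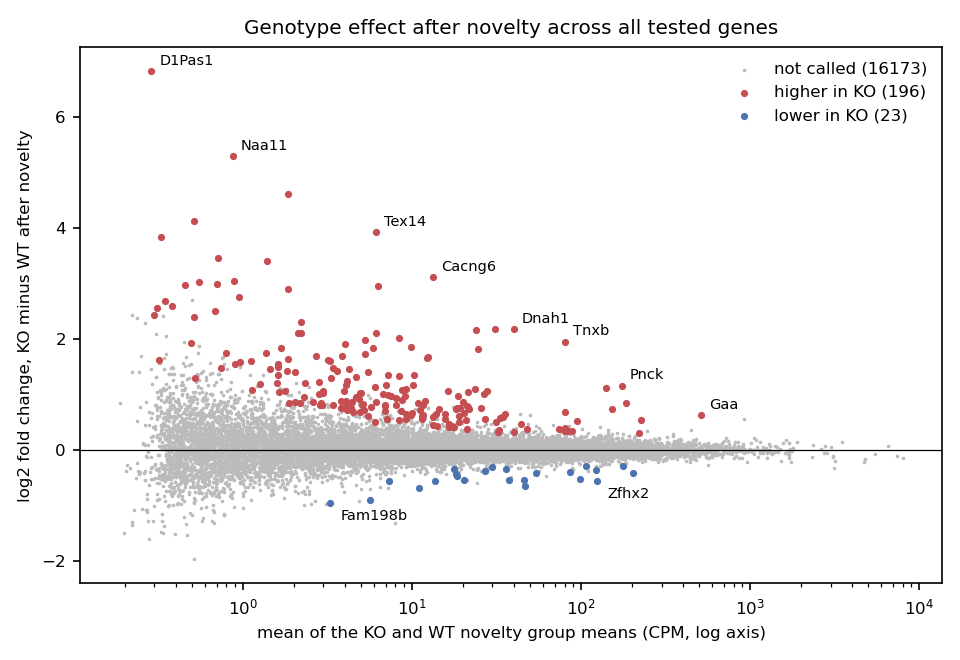
Log2 fold change of KO against wild type after novelty (vertical axis) against the mean of both group means in CPM (horizontal log axis) for all 16392 tested genes, with 196 higher genes in red, 23 lower genes in blue and the rest in grey. The large rises lie at low levels, and the falls stay within 2-fold.

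Biotypes other than protein coding covered 40 of the 196 rises (20.4%, against 11.4% of tested genes), with 20 lincRNAs and 7 antisense genes among them. The X chromosome held 8 higher genes, 4.08% against 3.42% of tested genes. Chromosome 9 held 23 higher genes of 935 tested, or 2.46%, and chromosome 13 held 2 of 577, or 0.347%. Within 10 Mb of Kdm5c 2 of 76 tested genes were called, where 1.34% of all tested genes were. Both, Map3k15 and Kcne1l, were higher. The call of Kcne1l ended without KO library 1 (edgeR adjusted p = 0.0538), and that of Map3k15 in 5 of the 6 fits that left out a library. At the threshold, the last genes inside were Lars2 (-0.52) and Gss (-0.33), each with an adjusted p of 0.0491. The closest outside were Nipal2 (0.53) and Nrap (1.56), each at 0.0512.

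Meiotic genes were the group with the highest median. Of 44 genes of meiosis in the files, 26 had enough counts, and 5 of these rose in KO and 0 fell, where 1.2% of all tested genes rose. Their median log2 fold change was 0.66, against 0.00 over all genes, and in 12 of 26 every KO library lay above every wild-type library, against 6.64% of all tested genes. The mean log2 CPM of the 26 genes was 0.41, 0.61 and 0.42 in the wild-type libraries against 1.31, 1.31 and 1.39 in the KO libraries. The 5 were Tex14, Hsf2bp, Rec114, Sycp3 and Ccnb1ip1. Hsf2bp and Rec114 had so few wild-type counts that they could be tested only through KO. The filter thus set the direction of such members beforehand, and the counts, median and means above include them. In untreated mice the median of this list was 0.26.

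Tex14 (chromosome 11, 87405065 to 87555823) keeps the bridges open that join dividing germ cells. Its level was 0.691, 0.840 and 0.711 CPM in wild type, and KO held 11.7, 11.7 and 11.1 CPM, so that the lowest KO library was far above the highest wild-type library. The log2 fold change was 3.92 ± 0.16 (n = 3 libraries per group, edgeR adjusted p = 1.57e-08). In counts, Tex14 had 60 in the wild-type group and 671 in the KO group. The ratio per M counts was 15.3, with a 95% exact interval of 11.7 to 20.2 that covers counting error only.

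Hsf2bp (chromosome 17, 31944769 to 32036349), which brings BRCA2 to meiotic breaks, stood at 0.400, 0.162 and 0.142 CPM in wild type with 1.94, 2.09 and 3.66 CPM in KO. KO library 3 was the highest, and no library overlapped (log2 fold change 3.40 ± 0.37, edgeR adjusted p = 0.000169). Rec114 (chromosome 9, 58652850 to 58743964) is needed to form those breaks. Its 8 wild-type and 49 KO counts gave a ratio per M counts of 8.37 (95% exact interval 3.93 to 20.5) with KO library 2 the lowest of its group at 0.492 CPM. Its log2 fold change was 2.98 ± 0.42 (edgeR adjusted p = 0.0017).

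Sycp3 (chromosome 10, 88459569 to 88473236) builds the axis of meiotic chromosomes. It was at 0.836, 0.840 and 0.474 CPM in wild type and at 2.43, 3.20 and 2.36 CPM in KO, without overlap. The rise was 1.84 ± 0.26 in log2 (edgeR adjusted p = 0.0017). Ccnb1ip1, a ligase of crossover sites, went from 0.909, 0.775 and 0.616 CPM to 1.53, 2.03 and 2.86 CPM (1.45 ± 0.27, edgeR adjusted p = 0.0143). Its call ended without wild-type library 2 or 3 or KO library 3 (0.0755 to 0.0904). The other 21 tested meiotic genes did not pass. They ran from Rad21l, a cohesin subunit (-0.24), to Spo11, the enzyme that cuts meiotic breaks, with 6 wild-type and 24 KO counts (2.37, edgeR adjusted p = 0.181). Dmc1, the meiotic recombinase, had 81 and 64 counts (0.09), so the members of this list did not move alike.

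Genes of germ cell RNA and of the piRNA pathway gave 4 rises and 0 falls among 19 tested of 29 (1.2% of all tested genes rose), with a median log2 fold change of 0.25, also with D1Pas1 at its bound. Among these rises, Stk31 and D1Pas1 had so few wild-type counts that they could be tested only through KO. Rnf17, a Tudor protein of spermatids (chromosome 14, 56402581 to 56525032), was at 0.473, 1.00 and 0.901 CPM in the wild-type libraries against 2.84, 4.43 and 3.11 CPM in the KO libraries (2.11 ± 0.32, edgeR adjusted p = 0.00327). Stk31, a germ cell kinase with a Tudor domain (chromosome 6, 49395604 to 49469501), was at 0.182, 0.162 and 0.285 CPM against 1.49, 0.615 and 1.35 CPM, with KO library 2 nearest to wild type (2.51 ± 0.43, edgeR adjusted p = 0.00752). Its call ended without wild-type library 2 (adjusted p = 0.0609) or KO library 1 (0.0562).

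Ddx4, the VASA RNA helicase of germ cells (chromosome 13, 112598333 to 112652475), was read at 3.42, 4.01 and 3.89 CPM in wild type, and KO held 6.39, 7.44 and 11 CPM. The groups did not overlap, and KO library 3 held the highest value (1.14 ± 0.21, edgeR adjusted p = 0.0115). That call ended without wild-type library 2 or 3 or KO library 3, with adjusted p-values from 0.0501 to 0.0592. D1Pas1, a testis RNA helicase (chromosome 1, 186967416 to 186970627), had 0 counts in wild type and 0.540, 0.738 and 0.452 CPM in the KO libraries. Against 3 counts taken as the floor of the wild-type group, its 33 counts in KO set a bound of 15-fold higher per M counts. The 95% exact interval, which covers counting error only, began lower, at 11.5-fold. Among members that did not pass, Tdrd6 had the lowest value (-0.74) and Dazl, the translation regulator of germ cells, had 302 and 200 counts (-0.16).

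Of 33 genes of spermatids and sperm 10 had enough counts, and 2 rose, against 1.2% of all tested genes. Both had so few wild-type counts that they could be tested only through KO. Naa11, the testis copy of an N-terminal acetyltransferase (chromosome 5, 97382198 to 97392379), had 3 counts in all of wild type against 97 in KO. Its KO libraries stood at 0.945, 1.91 and 2.26 CPM, and the ratio per M counts was 44.2 (95% exact interval 14.7 to 218, edgeR adjusted p = 0.00116). Cyct, the testis form of cytochrome c (chromosome 2, 76353942 to 76360450), had 4 and 56 counts, a ratio with a 95% exact interval of 7.07 to 72.6 ( edgeR adjusted p = 0.00156). The other 8 had a range from Tcp11 (-0.76) to Catsper3 (1.08), and 23 of the 33 genes were too low to test in either genotype.

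The promoters of these genes are shown because PRC1.6 is known to bind an E2F core, TCCCGC, and an E-box, CACGTG, in promoters of germ line genes. The sequences are the 250 bases before the RefSeq start (GRCm38.p6), read 5′ to 3′ on the strand of the gene, with matches on either strand in capitals (an E2F core on the opposite strand reads GCGGGA). They lie at chr11:87404815-87405064 (plus strand, Tex14), chr10:88459337-88459586 (plus, Sycp3), chr13:112652311-112652560 (minus, Ddx4), chr6:49395354-49395603 (plus, Stk31), chr5:97392331-97392580 (minus, Naa11) and chr2:76360454-76360703 (minus, Cyct).
Tex14: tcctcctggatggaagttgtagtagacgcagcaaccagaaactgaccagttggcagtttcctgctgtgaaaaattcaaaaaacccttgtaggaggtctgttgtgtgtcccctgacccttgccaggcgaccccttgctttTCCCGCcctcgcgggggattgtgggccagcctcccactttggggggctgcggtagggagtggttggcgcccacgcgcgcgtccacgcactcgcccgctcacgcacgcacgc
Sycp3: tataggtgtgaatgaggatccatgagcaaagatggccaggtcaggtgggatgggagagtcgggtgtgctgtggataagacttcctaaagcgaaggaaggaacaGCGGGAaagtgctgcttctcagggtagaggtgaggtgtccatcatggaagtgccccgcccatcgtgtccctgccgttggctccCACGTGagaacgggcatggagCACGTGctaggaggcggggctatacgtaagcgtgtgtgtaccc
Ddx4: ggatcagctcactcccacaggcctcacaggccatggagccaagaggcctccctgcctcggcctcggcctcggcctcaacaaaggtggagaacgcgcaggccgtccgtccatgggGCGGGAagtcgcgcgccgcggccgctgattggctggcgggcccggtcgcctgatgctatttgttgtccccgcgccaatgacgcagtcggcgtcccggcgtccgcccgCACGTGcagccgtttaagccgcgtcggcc
Stk31: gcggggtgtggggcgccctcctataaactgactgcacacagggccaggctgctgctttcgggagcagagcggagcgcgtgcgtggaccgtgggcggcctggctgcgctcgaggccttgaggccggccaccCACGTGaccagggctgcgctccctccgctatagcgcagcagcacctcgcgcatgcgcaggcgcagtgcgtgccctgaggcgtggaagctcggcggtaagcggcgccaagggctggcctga
Naa11: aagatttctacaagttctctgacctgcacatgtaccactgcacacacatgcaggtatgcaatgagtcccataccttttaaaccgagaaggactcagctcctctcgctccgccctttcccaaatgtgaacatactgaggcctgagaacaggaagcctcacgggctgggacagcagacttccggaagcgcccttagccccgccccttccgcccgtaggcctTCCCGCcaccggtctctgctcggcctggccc
Cyct: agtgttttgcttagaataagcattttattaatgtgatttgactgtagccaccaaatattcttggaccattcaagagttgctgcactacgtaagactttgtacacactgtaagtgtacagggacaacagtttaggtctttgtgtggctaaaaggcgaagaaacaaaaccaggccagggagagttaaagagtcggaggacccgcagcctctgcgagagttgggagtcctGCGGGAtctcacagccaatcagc

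Of the 10 higher germ line genes with a promoter in RefSeq, 9 held an E2F core and 4 an E-box in the 300 bases from 250 before to 50 after the start. Among the 44 tested germ line genes with a promoter, called or not, 20 and 10 did. Over all 11974 tested genes with a promoter the shares were 35.0% and 9.83%. RefSeq starts of 7 of the 10 lay within 1000 bases of the annotated gene start, and 6 and 3 of these held the motifs. These counts describe a few chosen genes and carry no test.

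The whole set of higher genes gave other shares. Of 144 higher genes with a promoter, 37 held the E2F core (25.7%, against 35.0% of all tested genes). The E-box occurred in 15 of the 144 higher genes (10.4% against 9.83%). So the E2F core was less frequent among the higher genes, and the E-box about as frequent. Their promoters had a median of 9 CpG in 300 bases, against 20 over all tested genes, and CGCG occurred in 36.8% against 68.2%. The E2F core can overlap CGCG, so these measures share bases. Of 15 promoters of lower genes 8 held the E2F core and 1 the E-box. Cacng6 (chr7:3424412-3424661, plus strand) and Klk10 (chr7:43780804-43781053, plus strand), with large rises described below, held neither motif in this window, and they show the CpG-poor kind. For Cacng6 the RefSeq start lies 467 bases from the gene start of the annotation used for the counts.
Cacng6: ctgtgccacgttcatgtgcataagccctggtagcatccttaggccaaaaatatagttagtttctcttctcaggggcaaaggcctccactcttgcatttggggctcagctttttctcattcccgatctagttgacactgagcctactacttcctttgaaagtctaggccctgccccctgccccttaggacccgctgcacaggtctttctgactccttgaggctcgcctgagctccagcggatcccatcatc
Klk10: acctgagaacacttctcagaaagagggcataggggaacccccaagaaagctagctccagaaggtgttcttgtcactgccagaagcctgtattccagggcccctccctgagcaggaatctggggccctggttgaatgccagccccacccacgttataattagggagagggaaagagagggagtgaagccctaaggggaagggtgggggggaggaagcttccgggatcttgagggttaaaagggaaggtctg

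The regulators themselves did not pass in either direction. All 25 genes of PRC1.6 and DNA methylation were tested, 0 were called, and their median log2 fold change was -0.06 with 21 of 25 negative. E2f6 had -0.08, Pcgf6 -0.08 and Mga, which pairs with MAX, 0.38. None of the 8 other H3K4 demethylases was called (median 0.02), with Kdm5a at 0.03, Kdm5b at 0.01 and Kdm5d at 0.07. None of the 19 H3K4 methyltransferases and COMPASS core genes was called either, with a median of -0.03. Since 1.34% of all tested genes were called, lists of this size would hold few calls or none at that share.

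**Figure D2:**
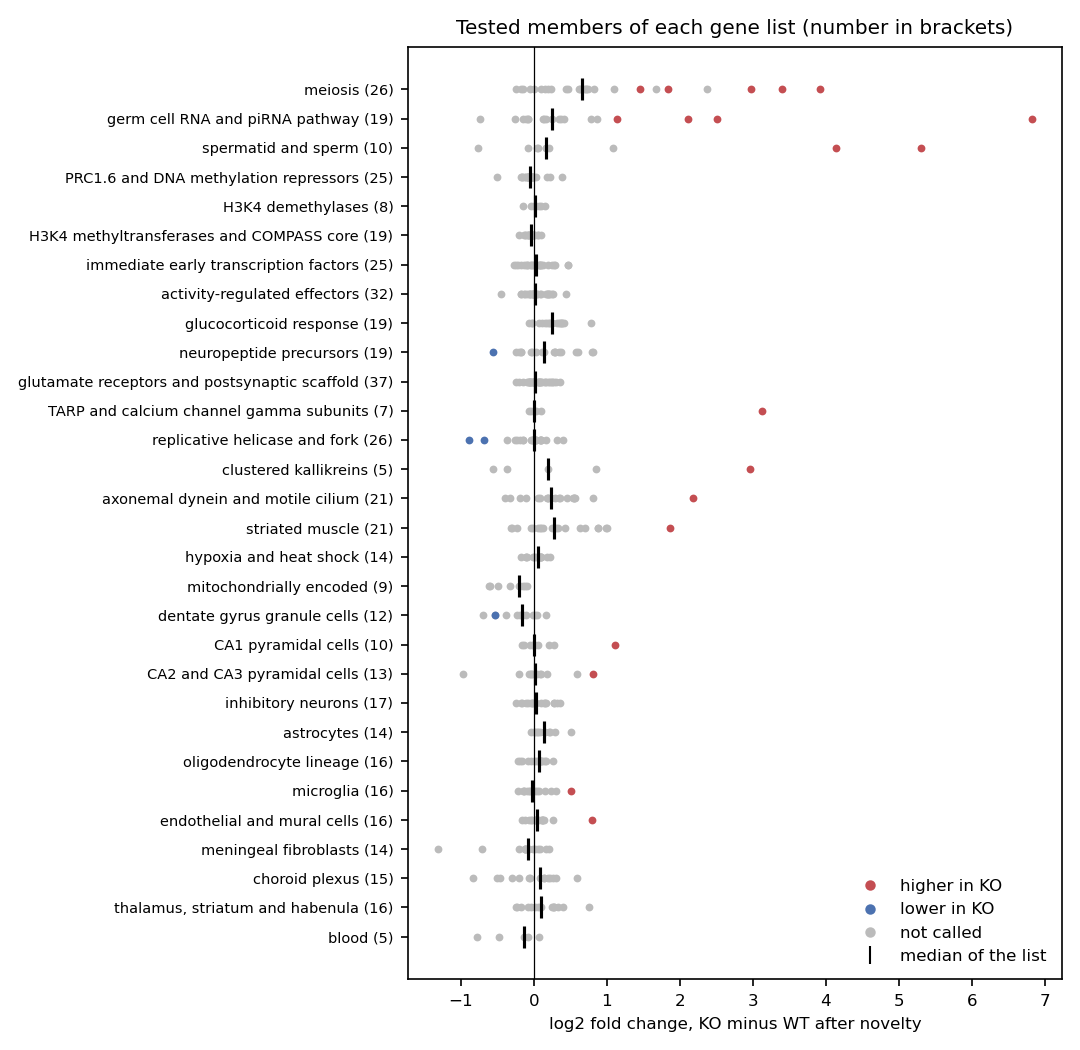
Log2 fold change of KO against wild type after novelty for each tested member of 30 gene lists (number of tested members in brackets), with called members in colour and the median of each list as a black bar. Most lists centre near 0 with few called members, and the rises of the germ line lists come from some of their members.

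Outside the germ line, several of the largest rises were of genes whose families did not pass as a whole. Cacng6 (chromosome 7, 3424195 to 3435667) encodes a gamma subunit of voltage-gated calcium channels. It was at 2.95, 2.78 and 2.42 CPM in wild type with 23.4, 23.9 and 24.2 CPM in KO, with a narrow spread on either side. The log2 fold change was 3.12 ± 0.10, with the smallest adjusted p of the comparison (edgeR, 6.16e-10). The other 6 tested members of the gamma subunit and TARP family lay between -0.07 (Cacng7) and 0.10 (Cacng5).

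Klk10, a kallikrein-related peptidase (chromosome 7, 43781035 to 43785410), was at 1.71, 1.26 and 1.33 CPM in the wild-type libraries against 12.4, 10.1 and 10.9 CPM in the KO libraries (2.96 ± 0.14, edgeR adjusted p = 3.58e-08). Of 13 clustered kallikreins 5 were tested, and the remaining 4 ran from Klk7 (-0.56) to Klk9 (0.85) without a call. F9, coagulation factor IX (chromosome X, 59999464 to 60030759), rose from 0.109, 0.226 and 0.237 CPM to 1.76, 1.6 and 1.40 CPM (3.04 ± 0.31, edgeR adjusted p = 8.01e-05). Apoc1, an apolipoprotein (chromosome 7, 19689481 to 19692660), was at 0.909, 0.549 and 0.806 CPM against 3.92, 2.58 and 4.57 CPM (2.31 ± 0.26, edgeR adjusted p = 0.000281).

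Dnah1, an inner arm dynein heavy chain of motile cilia and sperm tails (chromosome 14, 31260375 to 31323896), was at 16.1, 14.9 and 12.4 CPM in wild type. Its KO libraries held 62.4, 59.7 and 74.4 CPM (2.17 ± 0.10, edgeR adjusted p = 3.58e-08). It was the only called gene of 21 tested in the cilium list, whose median was 0.23 with 17 positive. Dnah7a, Dnah7b and Dnah7c are near copies and their split of reads is uncertain. Ccdc153, another cilium gene, had 0.81 (edgeR adjusted p = 0.062) and Foxj1, the master regulator of motile cilia, 0.18.

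Acta1, skeletal muscle actin (chromosome 8, 123891769 to 123894751), rose from 5.13, 4.23 and 3.41 CPM to 15.9, 14.3 and 16.7 CPM (1.87 ± 0.13, edgeR adjusted p = 2.73e-06). It was the only call among 21 tested muscle genes, with a list median of 0.27 and 16 positive. Next came Myl4 (1.00, edgeR adjusted p = 0.067) and Neb (0.99, 0.13), while Ttn had -0.23.

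Rps4l (chromosome 6, 148354656 to 148355598), a copy of a ribosomal protein gene, was at 15.2, 8.66 and 9.58 CPM in wild type with 49.3, 52.8 and 50.5 CPM in KO (2.19 ± 0.18, edgeR adjusted p = 1.09e-05). Its reads may be shared with related ribosomal protein copies, so the value is uncertain. A830008E24Rik, a lincRNA (chromosome 1, 154037597 to 154117951), rose from 0, 0.194 and 0.237 CPM to 3.42, 3.38 and 3.81 CPM (4.63 ± 0.39, edgeR adjusted p = 1.54e-05). 4930524B15Rik, annotated as protein coding (chromosome 11, 31965592 to 31979651), was at 0.190 to 0.327 CPM in the wild-type libraries against 1.40 to 1.91 CPM in the KO libraries (2.76 ± 0.28, edgeR adjusted p = 7.78e-05).

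**Figure D3:**
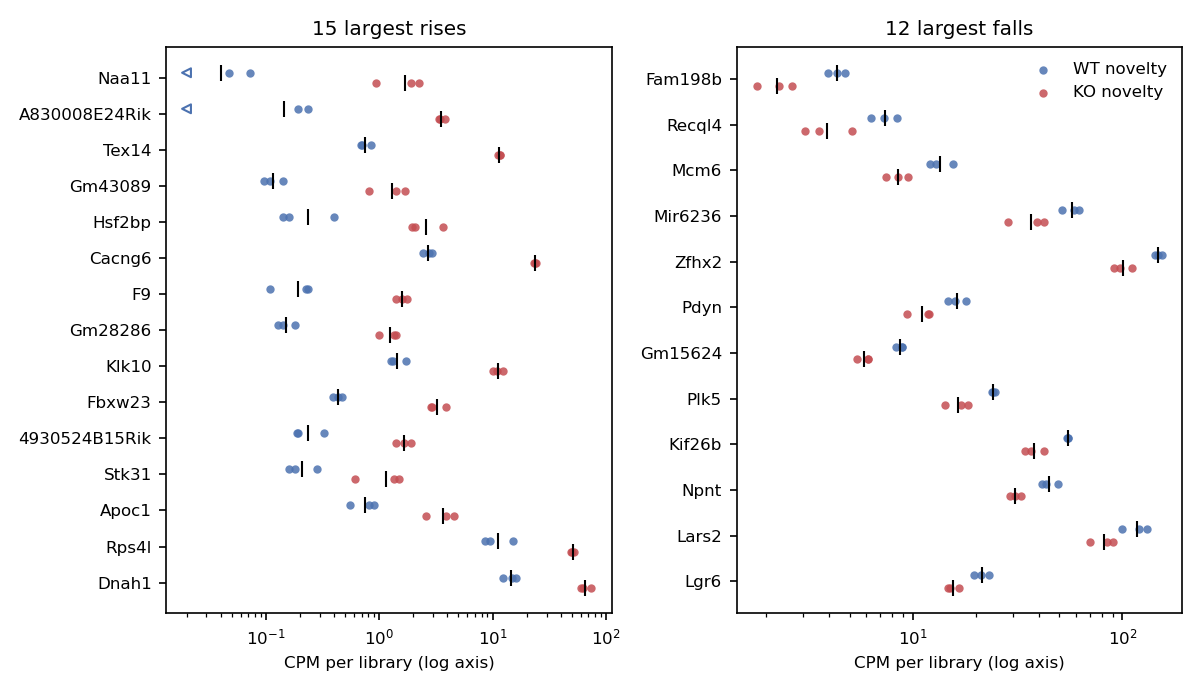
CPM per library (horizontal log axis) of the 15 largest rises and the 12 largest falls, wild type in blue and KO in red, with the group mean as a black bar and open triangles at the left edge for libraries at 0 CPM. The 3 KO libraries and the 3 wild-type libraries do not overlap in any of these genes, which the naming rule required.

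Some rises were of genes already well expressed, described here after their values were seen. Of the 196 higher genes, 6 had a wild-type mean of at least 100 CPM: Gaa, Pnck, 6330403K07Rik, Neat1, Zmynd8 and Arpp21. Gaa, the lysosomal enzyme that breaks down glycogen (chromosome 11, 119267887 to 119285454), was at 453, 356 and 400 CPM in wild type, and KO held 612, 596 and 664 CPM (0.63 ± 0.09, edgeR adjusted p = 0.00214). Pnck, a kinase of the calmodulin-dependent family (chromosome X, 73655994 to 73660117), rose from 121, 95.4 and 106 CPM to 240, 227 and 255 CPM (1.16 ± 0.10, edgeR adjusted p = 1.36e-05). Zmynd8, a reader of histone marks, was at 189, 176 and 187 CPM against 276, 242 and 285 CPM (0.54 ± 0.07, edgeR adjusted p = 0.00058). In each of these, as in all 196 higher genes, the lowest KO library exceeded the highest wild-type library.

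Neat1, the scaffold RNA of paraspeckles, was at 97.3, 121 and 123 CPM in wild type with 216, 156 and 202 CPM in KO (0.75 ± 0.11, edgeR adjusted p = 0.0028). Arpp21, a phosphoprotein of neurons, showed the smallest called rise, from 204, 193 and 197 CPM to 238, 246 and 253 CPM (0.31 ± 0.06, edgeR adjusted p = 0.0242). Only without wild-type library 1 did that call hold, and the other 5 fits that left out a library gave 0.0504 to 0.137. Of 11 genes with a rise over 2-fold from at least 10 CPM, Tnxb, tenascin X of the extracellular matrix (chromosome 17, 34670535 to 34719815), went from 36.3, 33.6 and 28.9 CPM to 135, 105 and 144 CPM (1.95 ± 0.12, edgeR adjusted p = 8.01e-07). Mirt1, a long noncoding RNA, went from 10.7, 9.34 and 12.5 CPM to 38.8, 32.5 and 43.3 CPM (1.83 ± 0.14, edgeR adjusted p = 4.73e-06).

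Some called genes lay side by side, which is given here as a description with no test. With starts within 100000 bases of each other, 31 called genes formed 14 runs. Of these genes 29 were higher and 2 lower, and 12 runs held only higher genes, where 196 of all 219 called genes were higher. Gm28286 (154027363 to 154034301, 3.00) and A830008E24Rik (154037597 to 154117951, 4.63) were neighbours on chromosome 1. Next to Cacng6, 3300002P13Rik (chromosome 7, 3421665 to 3423445), on the opposite strand, rose from 2.22, 3.26 and 2.18 CPM to 10.6, 9.28 and 7.73 CPM (1.83 ± 0.16, edgeR adjusted p = 2.87e-05). The pseudogenes Fbxw23 (2.91) and Gm43089 (3.46) and the antisense gene Gm42756 (1.70) formed a run on chromosome 9. Gm43089 lies within Gm42756 on the other strand. Parvb (0.59) and Parvg (1.06), which encode parvins of the integrin-linked kinase complex, are neighbours on chromosome 15, as are the keratin genes Krt1 (1.31) and Krt77 (0.59).

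Other runs held Tcfl5 (3.03) with Col9a3 (0.98), Prss32 (2.43, its call kept in 1 of 6 fits, that without wild-type library 1) with Prss41 (0.81), Cdhr4 (1.6) with Gm20661 (1.56) and Mst1r (0.82), Pdzd3 with Nlrx1, Hsf4 with B3gnt9, and Gm37885 with Gm37069. Several of these overlap or share a start region, such as Tcfl5 and Col9a3 on opposite strands of chromosome 2. No source used here gives the strand setting of the counting, so reads of overlapping genes cannot be told apart. Myh7b (0.46) and Gss (-0.33) were neighbours with opposite directions.

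The other run with opposite directions lay at Zfhx2 on chromosome 14. Zfhx2, a homeobox transcription factor gene (55060262 to 55092324, minus strand), fell from 154, 143 and 147 CPM to 97.7, 91.1 and 111 CPM. Its log2 fold change was -0.56 ± 0.07 (edgeR adjusted p = 0.000681), the smallest adjusted p among the falls. Zfhx2os, the antisense gene across its 3′ part (55053869 to 55075873), rose from 4.73, 3.94 and 3.51 CPM to 10.7, 9.78 and 10.8 CPM (1.36 ± 0.11, edgeR adjusted p = 1.42e-05). Thtpa, a thiamine triphosphatase on the other side (55094784 to 55098986), was at 26.1 to 31.4 CPM in the wild-type libraries against 35.0 to 36.5 CPM in the KO libraries (0.33 ± 0.07, edgeR adjusted p = 0.0333). The 3 calls stood in opposite directions at neighbouring positions, and that of Thtpa held only without wild-type library 1 among the 6 fits (0.0751 to 0.154 in the others).

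Of the 23 lower genes, Recql4, Mcm6, Pdyn and Npnt were members of a list. Fam198b, a Golgi protein (chromosome 3, 79884533 to 79946280), had the largest fall, from 3.93, 4.75 and 4.36 CPM to 2.30, 2.64 and 1.81 CPM (-0.96 ± 0.18, edgeR adjusted p = 0.013). Kif26b, a kinesin (chromosome 1, 178529125 to 178939200), was at 54.4, 55.0 and 55.0 CPM in wild type, and KO held 34.3, 42.1 and 36.7 CPM (-0.54 ± 0.08, edgeR adjusted p = 0.00278). Among the 12 named falls, the calls of Zfhx2 and Kif26b held in every fit that left out a library. The call of Fam198b ended without wild-type library 2 or 3 or KO library 1 or 3 (adjusted p = 0.052 to 0.0825).

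Of 26 tested genes of the replicative helicase and the fork 2 fell, against 0.14% of all tested genes, with a list median of 0.00. Recql4, a helicase of replication origins and repair (chromosome 15, 76703553 to 76710548), was at 7.31, 6.30 and 8.44 CPM in wild type with 3.56, 3.07 and 5.12 CPM in KO (-0.89 ± 0.19, edgeR adjusted p = 0.0316). Mcm6, part of the ring that unwinds DNA at the fork (chromosome 1, 128331590 to 128359664), was at 12.9, 15.6 and 12.1 CPM against 8.55, 9.47 and 7.42 CPM (-0.68 ± 0.13, edgeR adjusted p = 0.019). The other subunits of that ring did not pass, with Mcm2 at -0.01, Mcm3 at 0.10, Mcm4 at 0.03, Mcm5 at -0.15 and Mcm7 at 0.08. The call of Recql4 ended without wild-type library 1 or 3 or KO library 1 or 2 (adjusted p = 0.0593 to 0.161), and that of Mcm6 without wild-type library 2 or KO library 1 or 3 (0.0812 to 0.107).

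Pdyn, the precursor of the dynorphin peptides that dentate granule cells release (chromosome 2, 129686565 to 129699844), was the only call among 19 tested neuropeptide genes. It fell from 18, 15.9 and 14.8 CPM to 11.8, 12 and 9.38 CPM (-0.56 ± 0.11, edgeR adjusted p = 0.0247), and the call ended without wild-type library 1 or 2 or KO library 3 (0.0602 to 0.1). The list's median was 0.14, with Sst at 0.14, Npy at 0.03 and Penk at -0.17. Npnt, an integrin ligand of the matrix (chromosome 3, 132881745 to 132950291), was at 41.3, 49.4 and 43.0 CPM in the wild-type libraries against 29.2, 32.8 and 30.6 CPM in the KO libraries. Its log2 fold change was -0.53 ± 0.09 (edgeR adjusted p = 0.00915), and the call ended without KO library 1 (0.0658). Npnt was the only call among 12 dentate granule cell markers, whose median was -0.17 with 9 negative. Summed, these markers stood at 528, 740 and 602 CPM in wild type, and KO held 515, 588 and 532 CPM, with wild-type library 2 the highest, and their part in the falls of Pdyn and Npnt was not tested.

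The other named falls were smaller or less stable. Plk5, a polo-like kinase, was at 23.9 to 24.6 CPM in wild type with 14.2 to 18.3 CPM in KO (-0.55 ± 0.12, edgeR adjusted p = 0.0458). Lgr6, an R-spondin receptor, was at 19.7 to 23.2 CPM against 14.8 to 16.6 CPM (-0.47 ± 0.10, edgeR adjusted p = 0.0322). Gm15624, an antisense gene, was at 8.29 to 8.87 CPM against 5.41 to 6.12 CPM (-0.55 ± 0.11, edgeR adjusted p = 0.024). Of the 6 fits without a library, 5 ended the call of Plk5 (all but that without KO library 3) and 5 that of Gm15624 (all but that without wild-type library 1). The call of Lgr6 ended without wild-type library 2 or KO library 1 or 2 (0.0952 to 0.133).

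Mir6236 (chromosome 9, 110281287 to 110281409) was at 62.1, 58.4 and 51.2 CPM in the wild-type libraries against 39.1, 28.3 and 42.1 CPM in the KO libraries (-0.65 ± 0.13, edgeR adjusted p = 0.024). Libraries of messenger RNA do not measure the mature miRNA, so this counts longer RNA at the locus. Lars2, a mitochondrial leucyl-tRNA synthetase (chromosome 9, 123366927 to 123462666), was at 131, 120 and 99.0 CPM against 90.2, 69.8 and 84.5 CPM (-0.52 ± 0.12, edgeR adjusted p = 0.0491). Both loci are known to collect reads of ribosomal RNA. Beside them Gm15564, another such locus, had -0.60 (edgeR adjusted p = 0.0877). Gm42418 had -0.02, at 2115, 1793 and 1452 CPM in wild type against 1364, 2531 and 1401 CPM in KO. Its KO library 2 was the highest, while KO libraries 1 and 3 lay under all wild-type libraries. The lincRNA Gm26917 had 0.12, and the mitochondrial ribosomal RNAs mt-Rnr1 and mt-Rnr2 had -0.12 and -0.16. Hexim2, looked at beside these loci, rose (0.98, edgeR adjusted p = 0.00209). The part of ribosomal RNA in these falls was not tested. Mir6236 lost its call without wild-type library 1 or 2 or KO library 1 (0.052 to 0.076), and Lars2 without wild-type library 1 or 2 or KO library 2 or 3 (0.101 to 0.139). The 11 lower genes outside the naming rule, among them Spata13 (-0.44), Cemip (-0.42) and Rreb1 (-0.41), fell by less than Lgr6.

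Immediate early genes, which novelty drives, did not pass between the genotypes. None of 25 transcription factors was called, with a median log2 fold change of 0.02 and values from -0.28 (Btg2) to 0.47. None of 32 activity-regulated effectors was called, with a median of 0.01. Of all tested genes 1.34% were called, so lists of this size would hold few calls or none at that share. Fos was at 44.7, 42.4 and 53.1 CPM in wild type, and KO held 48.2, 38.9 and 44.3 CPM (-0.09 ± 0.33, edgeR adjusted p = 0.987). Arc, a synaptic protein, was at 385, 318 and 377 CPM against 407, 292 and 370 CPM (-0.01 ± 0.30, edgeR adjusted p = 0.999). The genotypes overlapped in both genes.

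Egr1, a zinc finger factor, was at 227, 232 and 229 CPM in wild type with 243, 220 and 222 CPM in KO (-0.01 ± 0.20). Nr4a1, an orphan nuclear receptor, was at 135, 127 and 137 CPM against 141, 109 and 128 CPM (-0.08 ± 0.20). Npas4, a factor of neuronal activity, was at 44.5, 40.4 and 47.1 CPM against 41.0, 27.6 and 42.8 CPM (-0.24 ± 0.26). Egr1, Nr4a1 and Npas4 overlapped too, with KO library 2 the lowest of the 6 in each. The standard errors, 0.20 to 0.33 over the 5 genes, come from the fit of all 12 libraries, untreated ones included. A call needed several times the standard error, as Lars2, just inside the threshold, had -0.52 ± 0.12. Differences well above 0.20 to 0.33 could therefore also go uncalled in these genes.

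In untreated mice the group means of the same 5 genes were lower in either genotype. Untreated wild-type libraries held Fos at 4.44, 22.0 and 14.2 CPM and untreated KO libraries at 25.8, 14.5 and 26.3 CPM (0.69 ± 0.35, edgeR adjusted p = 0.649). For Arc the untreated values were 73.1, 205 and 144 CPM and 307, 146 and 275 CPM (0.79 ± 0.31, edgeR adjusted p = 0.439). The test of the difference between the genotype effects gave unadjusted p-values of 0.0499 (Npas4) to 0.13 (Fos) over the 5 genes, none of which passes after adjustment.

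**Figure D4:**
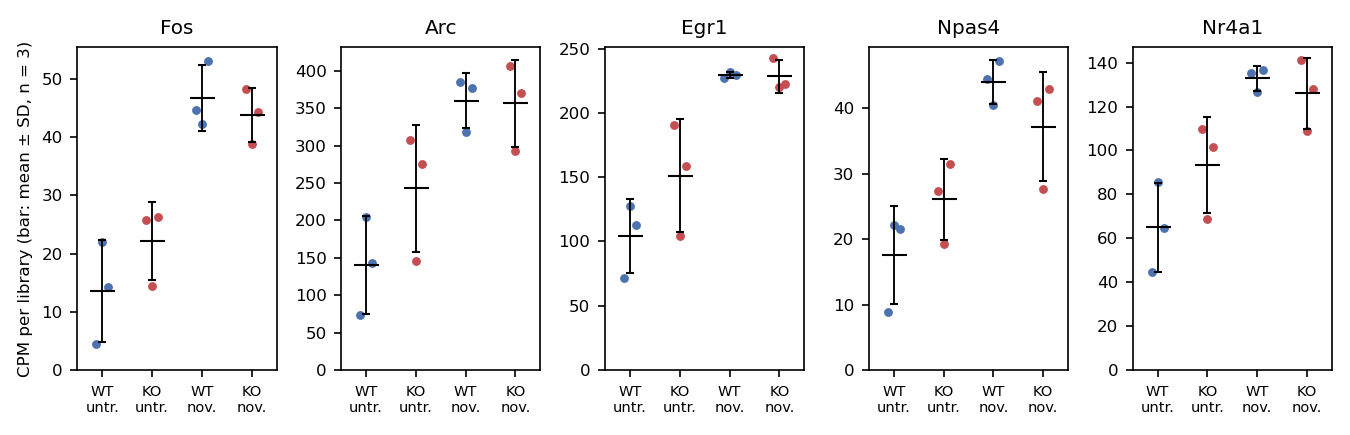
CPM per library of 5 immediate early genes in untreated and novelty groups of wild type (blue) and KO (red), with the mean and SD of 3 libraries as bars and a linear axis from 0. After novelty the genotypes overlap in each gene, for example Arc at 318 to 385 CPM in the wild-type libraries against 292 to 407 CPM in the KO libraries.

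Glucocorticoid response genes, which stress hormones raise, had a median of 0.24 with 16 of 19 positive and 0 called, where 1.34% of all tested genes were called. In 7 of 19 every KO library lay above every wild-type library, against 6.64% of all tested genes. Their summed level was 1144, 1147 and 1154 CPM in wild type, and KO held 1285, 1263 and 1288 CPM. Mt2, a metallothionein, came closest (0.38, edgeR adjusted p = 0.052), while Fkbp5 had 0.06 and the receptor gene Nr3c1 -0.02. None of 37 glutamate receptor and postsynaptic scaffold genes (median 0.02) and none of 14 hypoxia and heat shock genes (0.06) was called. The 9 tested mitochondrially encoded genes were all negative (median -0.21) and none was called, with summed levels of 28732 to 34232 CPM in wild type with 24883 to 30337 CPM in KO.

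Called cell type markers came singly, with at most 1 in a list, where 1.34% of all tested genes were called. Spink8, a peptidase inhibitor of CA1 neurons (chromosome 9, 109812280 to 109826633), rose from 14.3, 16.1 and 14.7 CPM to 32.7, 34.9 and 29.7 CPM (1.11 ± 0.09, edgeR adjusted p = 9.91e-06). The other 9 CA1 markers were not called, and the list's median was 0.00. Map3k15, a stress kinase of CA2 neurons (chromosome X, 159988433 to 160123351), was at 4.11, 6.27 and 4.69 CPM against 8.19, 9.41 and 8.93 CPM (0.80 ± 0.17, edgeR adjusted p = 0.0304). Only the fit without wild-type library 2 kept that call among the 6 (the others gave 0.0762 to 0.141), and 12 other markers of CA2 and CA3 were not called.

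Siglech, a lectin of microglia (chromosome 7, 55768178 to 55778925), was at 13.2, 18.1 and 15.9 CPM in the wild-type libraries against 23.7, 21.6 and 22.0 CPM in the KO libraries (0.51 ± 0.10, edgeR adjusted p = 0.0242). The median of 16 microglia markers was -0.03, with Cx3cr1 at -0.15 and P2ry12 at -0.05. Emcn, an endothelial sialomucin (chromosome 3, 137341067 to 137432185), was at 4.33, 6.17 and 4.69 CPM against 9.99, 9.35 and 7.07 CPM (0.79 ± 0.16, edgeR adjusted p = 0.02), with a median of 0.05 over 16 endothelial and mural markers. The call of Siglech ended without wild-type library 3 or KO library 1 or 3 (0.094 to 0.154). That of Emcn ended without wild-type library 1 or 3 or KO library 1 or 2 (0.0554 to 0.135).

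None of the 17 inhibitory neuron, 14 astrocyte, 16 oligodendrocyte, 14 meningeal, 15 choroid plexus, 16 thalamic and striatal, or 5 blood markers tested was called. Of all tested genes 1.34% were called, a share at which short lists hold few calls or none. Astrocyte markers had a median of 0.14 with 13 of 14 positive, and summed levels of 5960 to 6716 CPM in wild type, and KO held 6792 to 7031 CPM. Choroid plexus markers summed to 177 to 250 CPM in wild type with 161 to 235 CPM in KO, which overlap. Blood markers summed to 31.5 to 37.4 CPM and 28.3 to 35.2 CPM.

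Untreated mice were used to see which differences were there before novelty. The 2 comparisons share no library but come from 1 fit, with 1 spread per gene. Untreated KO differed in 204 genes (1.24%), with 178 higher (1.09%) and 26 lower (0.159%). Of the 196 higher genes, 195 had a positive value in untreated KO too, and in 188 every untreated KO library lay above every untreated wild-type library, against 11.6% of all tested genes. Both calls were made for 140 genes, which are 71.4% of the 196 and 78.7% of the 178 higher in untreated KO. Of the lower genes 4 of 23 were called in both (17.4%, and 15.4% of the 26 lower in untreated KO), 1 of 23 was positive in untreated KO, and in 15 of 23 every untreated KO library lay below every untreated wild-type library, against 9.35% of all tested genes. Their median was -0.47 after novelty and -0.23 untreated. They were chosen by their values after novelty, which by itself favours the larger fall there.

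No gene passed the test of the difference between the genotype effect after novelty and that in untreated mice. The smallest adjusted p was 0.99992 (edgeR quasi-likelihood test), 563 genes had an unadjusted p under 0.05 (3.43%), and DESeq2 also called 0. This count was not stable: it was 331 (29 higher, 302 lower) without wild-type library 1 and KO library 2, 53 when offsets for GC content and length were added to that, and 8 with no filter on low counts. Of the 56 higher and 19 lower genes called only after novelty, 3 and 1 were among the 331, 2 and 0 among the 53, and 0 among the 8. In the fit of all 12 libraries these genes are not shown to differ from untreated mice. The called genes were chosen by their effect after novelty, which enters this difference, so the choice by itself favours small p-values here. Of the called genes, 19 of 196 and 9 of 23 had an unadjusted p under 0.05 in that test. Rec114 was among them (2.98 after novelty and 0.92 untreated, unadjusted p = 0.0033). Recql4 was at 3.14, 3.87 and 4.20 CPM in untreated wild type and 4.11, 3.14 and 3.21 CPM in untreated KO, so that its wild-type novelty libraries stood above all the others. Kif26b had 38.1, 37.9 and 42.2 CPM in untreated wild type and 36.6, 32.5 and 36.3 CPM in untreated KO (unadjusted p = 0.00584).

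**Figure D5:**
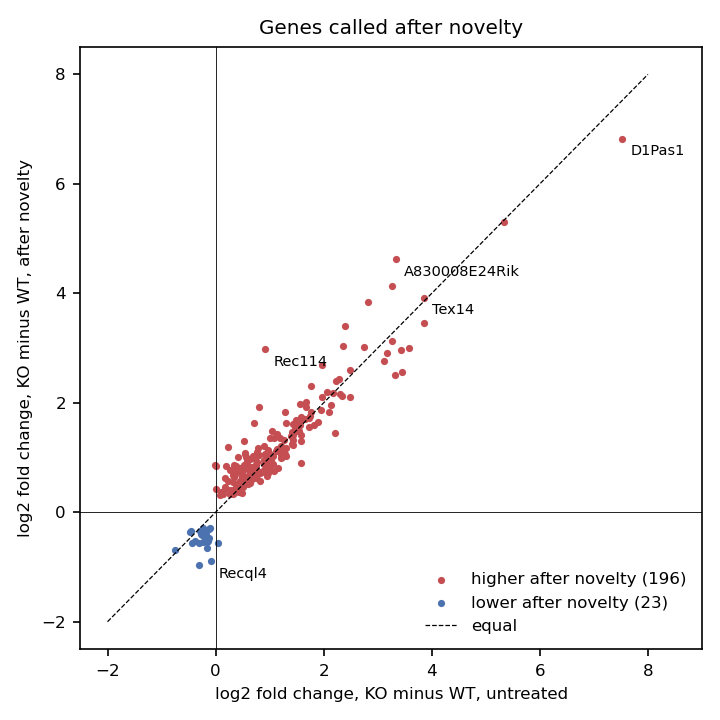
Log2 fold change of KO against wild type after novelty (vertical axis) against that in untreated mice (horizontal axis) for the 196 higher (red) and 23 lower (blue) genes, with a dashed line where both are equal. Of the higher genes 122 of 196 lie above the line, Rec114 (2.98 and 0.92) among them, and 20 of the 23 lower genes lie below it. The genes were chosen by their values after novelty, which by itself favours such positions.

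Of the 196 higher genes 112 were called in each of the 6 fits that left out a library, against 6 of the 23 lower genes. Without KO library 1 the count of called genes was 144, and without wild-type library 3 it was 145. The count of lower genes was 35 without wild-type library 1, 12 without wild-type library 2, 15 without wild-type library 3 and 11 without KO library 1. Without both libraries that stood apart 406 genes were higher and 299 lower, and 185 of the 196 and 18 of the 23 were among them.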

How the data were processed

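Hippocampal messenger RNA was sequenced as single reads of 50 nt in stranded libraries, per the labels' protocols. The authors deposited raw read counts per gene and library, made with STAR 2.5.0c, SAMtools 1.3 and HTSeq 0.6.1 on GRCm38, per the submitters' processing notes. The annotation release and the strand setting of the counting, not given in the sources used here, are unknown. Gene symbols came from GENCODE M21 (46574 of 47069 IDs matched) and promoters from RefSeq (GRCm38.p6). Lines that name no gene were left out (no feature 14.7% to 17.2%, ambiguous 0.765% to 0.826%).

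The counts of 12 libraries, 3 in each of 4 groups, were fitted in edgeR 4.0.16 (R 4.3.3, limma 3.58.1) with TMM factors after filterByExpr (minimum count 10, minimum total 15). The quasi-likelihood test was used with Benjamini-Hochberg adjustment over all 16392 genes and a threshold of 0.05. A standard error is the log2 fold change divided by the root of the F statistic. Named were the 15 largest rises and 12 largest falls among called genes with no overlap between groups and at least 1 CPM in a group, up to 4 called members of each list, 5 immediate early genes and Kdm5c. The comparison, its members and its gene lists were chosen with earlier results of these data known. Alternatives were DESeq2 1.42.0, other scaling, filters, designs and offsets, and each library left out. The fit was tested on simulated data first. Some called genes are not reported by name here.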

Additional observations from a re-analysis of the deposited data

How the results depend on the processing

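Of 700 values of named genes under the alternatives, 607 kept their direction and side of the threshold, 91 lost the call, 2 gained one and 0 reversed. Against 219 called genes (196 higher, 23 lower), DESeq2 gave 41 lower and no filter on low counts 39 lower. A test against a fold change of 1.2 called 126 (124 and 2), and a fit of the 6 libraries alone 104 (102 and 2). Offsets for GC content and length called 345 with 83 lower. Leaving out wild-type library 1 and KO library 2 called 705 (406 and 299), and both changes together, an alternative chosen after seeing the data, called 468 with 176 lower. Leaving out single libraries gave 144 to 282 called, 130 to 247 higher and 11 to 35 lower. Of the 196 higher genes 192 were also called by DESeq2, 194 with the offsets and 102 in the 6 libraries alone. The causes were not tested.

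Untreated KO differed in 204 genes, and in 347 with no filter, 122 against a fold of 1.2, 318 in its 6 libraries alone, 415 without both libraries, 330 with the offsets, 578 with offsets and without both libraries, and 121 to 149 without single libraries. The test of the difference between the effects called 0, but 8 with no filter, 331 without both libraries (29 and 302) and 53 with offsets and without them.

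Whether replicate numbers pair the novelty libraries is not settled by their values. Deviations of same-numbered libraries correlated at 0.174, 0.416 and 0.0319. Those of differently numbered libraries ran from -0.41 (wild-type library 2 with KO library 3) to 0.315 (wild-type library 1 with KO library 3). With the replicate number as a block 202 genes were called after novelty (182 higher, 20 lower), 173 in untreated mice and 0 for the difference, and these held 170 of the 196 rises and 16 of the 23 falls. Depth limits genes with few counts, such as Naa11, Cyct and Rec114, and 3 pools per group limit the rest.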
